A study of Mus musculus with 4 samples.

Results

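The interleukin 1 receptor family was followed in *Tmpo* KO and *Tmpo* WT immortalized mouse dermal fibroblasts (imMDFs) through 8 genes: the ST2 gene *Il1rl1*, the receptors *Il1rl2*, *Il1r1*, *Il1r2* and *Il18r1*, the shared coreceptor *Il1rap*, the ST2 ligand *Il33* and the receptor antagonist *Il1rn*. The members were named as a family with earlier results of these counts known, among them the values of *Il1rl1*. They carried 18 of the 32757 RefSeq transcript IDs that were counted, and 8 of the 23732 genes. Both *Il1rl1* IDs were kept apart, and for every other member 1 ID was chosen by its count summed over all libraries, the highest being taken, which left 9 IDs in use and 9 given by their counts only. Levels of the chosen IDs are therefore given as a description.

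RNA of *Tmpo* KO and *Tmpo* WT imMDFs was sequenced after depletion of rRNA in 4 libraries, 2 per genotype. *Tmpo* encodes several isoforms of lamina-associated polypeptide 2, among them LAP2alpha, a nucleoplasmic partner of A-type lamins. The KO cells lack LAP2alpha (labelled Lap2a -/- in the deposited design, against Lap2alpha +/+). For both genotypes replicate 1 came from passage 34 and replicate 2 from passage 42, and all cells grew in the same serum-containing medium without a further treatment. The sources name 1 line per genotype, so the genotype and any other difference between the lines cannot be told apart, and nothing in them says that replicates were separate cultures, so p-values measure the spread between these libraries only.

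ST2 exists as a membrane receptor, ST2L, which pairs with IL1RAP to signal in response to interleukin 33, and as a soluble form that lacks the transmembrane and intracellular parts and binds the same ligand as a decoy. Both forms come from *Il1rl1*, which was first described as a gene induced by serum and oncogenes in mouse fibroblasts, and the soluble form is the one long known from growth-stimulated fibroblasts. The receptors of the family signal through the adaptor MYD88, the IRAK kinases and NF-kappaB, while IL1R2 and IL1RN restrain interleukin 1 as a decoy receptor and a receptor antagonist.

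Libraries held 15786136 reads on transcripts in KO at passage 34 and 19603812 at passage 42, and 12168433 and 15677378 in WT. Values are given as CPM, counts scaled to these totals, after TMM normalization, in which 3 counts, the number taken as the lower limit of detection, correspond to between 0.153 and 0.247 CPM before normalization. Each transcript ID was counted as a feature of its own, so that a read in an exon common to several transcripts fell among the ambiguous reads, 12.1% to 13.4% of all reads. The count of an ID therefore reflects only the stretch that no other ID covers. The *Tmpo* ID NM_011605 had 6 and 6 counts in KO cells at passages 34 and 42, against 903 and 1324 in WT cells, as the labels have it. Its log2 fold change was -7.86, and -6.06 with counts summed over all *Tmpo* IDs. Reads in exons common to these IDs are missing, so the level of *Tmpo* as a whole was not measured. Of 10 fibroblast markers, 9 were abundant enough to be tested. Their summed level was 11441 and 15629 CPM in KO and 13699 and 12812 CPM in WT. Much of it came from *Vim* (5109 and 4671 CPM in KO, 5159 and 3660 CPM in WT) and collagen genes. *Lum*, with 1 ID, had only 12 and 30 counts in KO and 29 and 18 in WT. The main IDs of *Dcn* and *Pdgfra* reached at most 12.6 and 4.07 CPM. *Pdgfrb* was listed at 0 in all libraries on both of its IDs. A 0 of a gene with several IDs is not read as a low level, because genes of general use such as *Jund* (2 IDs) and *Mapk9* (4 IDs) were also listed at 0 throughout.

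The soluble and membrane forms of ST2 part within exon 8 of *Il1rl1*, and the bases on either side of that point are shown because they are what separates the 2 counted IDs. In NCBIM37, the build to which the reads were mapped, *Il1rl1* lies on the plus strand of chromosome 1 from 40486415 to 40522260. The 24 bases at chr1:40503497-40503520 belong to both forms and are printed in lower case. The capitals are the 29 bases that follow in each form. In the soluble form these are chr1:40503521-40503549, the start of an extension of exon 8, printed up to the stop codon. In the membrane form they are chr1:40506920-40506948, the start of exon 9.
soluble ST2: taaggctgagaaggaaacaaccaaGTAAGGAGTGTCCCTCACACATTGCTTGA
membrane ST2L: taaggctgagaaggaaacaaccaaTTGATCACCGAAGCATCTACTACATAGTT
Between the last shared base and the start of exon 9 lie 3399 bases, of which the soluble form keeps the first part. RNA not yet spliced to exon 9 holds this part too, so its reads there would be counted for the soluble ID. How many such reads there were was not measured. In the GENCODE models of the same build the soluble form has 8 exons, 2661 bases and 337 codons, of which 1473 bases are its own, and the membrane form has 11 exons, 5302 bases and 567 codons, of which 4114 bases are its own. NM_010743 is the RefSeq ID of the soluble form and NM_001025602 that of the membrane form.

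*Il1rl1* has a distal and a proximal start, known for use by different cell types, and the 250 bases before each are shown because the results turn on this gene. Sequences are from RefSeq on GRCm38.p6, at chr1:40429320-40429569 for the distal and chr1:40439379-40439628 for the proximal start, both on the plus strand. Each has 1 exact match in NCBIM37, at chr1:40486165-40486414 and chr1:40496224-40496473. Capitals mark a motif of GATA factors, the letters AGATAA or their reverse complement.
distal start: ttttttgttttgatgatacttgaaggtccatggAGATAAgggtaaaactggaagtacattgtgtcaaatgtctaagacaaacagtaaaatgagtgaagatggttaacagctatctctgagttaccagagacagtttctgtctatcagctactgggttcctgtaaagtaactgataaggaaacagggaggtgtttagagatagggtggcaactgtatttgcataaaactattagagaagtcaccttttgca
proximal start: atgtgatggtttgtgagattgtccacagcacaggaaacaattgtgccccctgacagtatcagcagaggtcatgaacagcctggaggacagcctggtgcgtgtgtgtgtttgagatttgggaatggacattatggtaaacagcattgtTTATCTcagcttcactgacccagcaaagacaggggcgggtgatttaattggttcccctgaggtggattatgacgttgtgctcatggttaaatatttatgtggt
The motif begins 217 bases before the distal start on the plus strand and lies 103 bases before the proximal start on the minus strand. Only the 250 bases before a start were searched in each window. Of 32851 RefSeq promoter windows, 9.99% held the GATA motif in that stretch on either strand. Neither *Il1rl1* window held the AP-1 motif TGANTCA (6.75% of windows), the TATA box letters TATAAA (12.4%) or the NF-kappaB motif (3.90%). Among the other members, *Il1rn* had AP-1 letters in 1 of its 3 windows, 141 bases before the start, *Il1rl2* and both windows of *Il33* had TATAAA, and 1 of 2 windows of *Il1r1* had the NF-kappaB motif. The counts do not show which start was used, and a match is a description of the letters only.

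Both forms of *Il1rl1* were higher in *Tmpo* KO than in *Tmpo* WT imMDFs, and no other member was called. The soluble form (NM_010743) had 322.6 CPM in KO at passage 34 and 156.0 CPM at passage 42, against 58.8 and 20.1 CPM in WT. These values rest on 5256 and 3015 counts in KO, against 701 and 316 counts in WT. Any reads of unspliced RNA in the soluble form's own stretch are among these counts. Both KO libraries lay above both WT libraries, as for 21.9% of all tested transcripts, the lower KO value being 2.65-fold the higher WT value. The log2 fold change was 2.61 ± 0.457 (SE) with an adjusted p of 0.0111 (edgeR, quasi-likelihood, adjusted across all transcripts), and the fold was 5.49 at passage 34 and 7.76 at passage 42.

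The membrane form (NM_001025602), the signalling receptor, had 165.7 and 104.1 CPM in KO at passages 34 and 42, against 41.0 and 19.2 CPM in WT. Counts were 2699 and 2012 in KO and 489 and 302 in WT. The groups did not overlap, as for 41.9% of all tested transcripts, with the lower KO value 2.54-fold the higher WT value. Its log2 fold change was 2.17 ± 0.346 (SE, edgeR adjusted p 0.0065), 4.04-fold at passage 34 and 5.42-fold at passage 42. Summed over both IDs, *Il1rl1* had 488.3 and 260.1 CPM in KO and 99.8 and 39.3 CPM in WT, a fold of 4.89 and 6.62 at the passages 34 and 42. Reads in exons common to both IDs are missing from this sum, so the level of *Il1rl1* as a whole was not measured. In bulk RNA, fewer cells that express a gene and less RNA per cell cannot be told apart.

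Across all 13855 transcripts tested, 2.75% were called in either direction and 1.51% were called higher and 1.24% lower in KO, at an adjusted p under 0.05. Of the 9 member IDs in use, 6 passed the filter on low counts (1 CPM in both replicates of a genotype), 2 were called, both higher and both of *Il1rl1*, and 4 were not called. Of these 4, 1 (*Il1rap*) had an unadjusted p under 0.05, and none was called by DESeq2 or by edgeR's exact or likelihood ratio test. Passage is shared by the libraries of the same replicate number, and with that number as a block, in a fit with 1 residual degree of freedom, 7.88% of transcripts were called, both *Il1rl1* IDs among them and again none of these 4 (adjusted p between 0.149 and 0.945). The family was put together with the *Il1rl1* result in view, so the count of 2 describes the members and supports nothing further. A positive log2 fold change was seen for 5 of the 6 tested IDs, 2 of them the *Il1rl1* IDs, whose values were known beforehand. The other 4 were at 0.50 (*Il1rap*), 0.45 (*Il18r1*), 0.14 (*Il1r1*) and -0.18 (*Il1rl2*), beside a median of 0.02 over all tested transcripts. Members that failed the filter have no part in these values. The calls of *Il1rl1* leaned on WT replicate 2: without that library the log2 fold change was 2.03 (edgeR adjusted p 0.0597) for the soluble and 1.72 (adjusted p 0.0538) for the membrane form, with the lone WT library assumed to vary like the KO libraries. In DESeq2 the soluble form had a log2 fold change of 2.59 with an adjusted p of 0.0595.

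**Figure D1:**
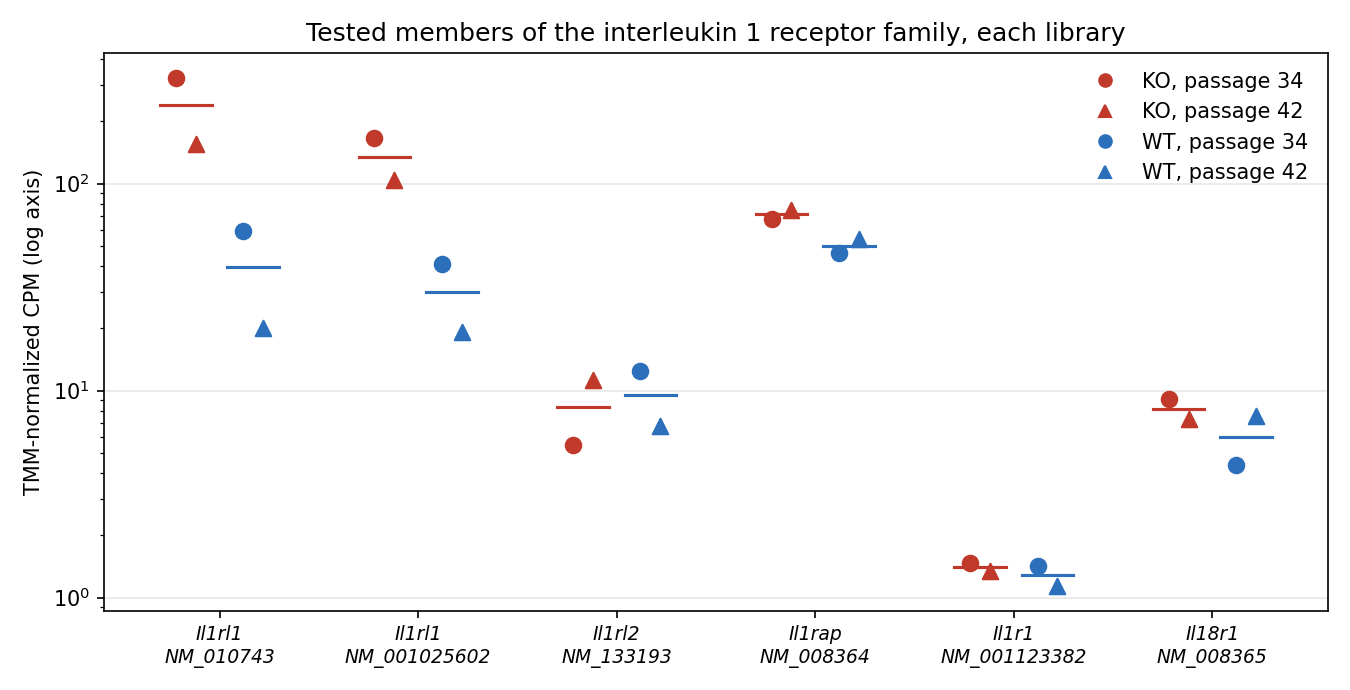
TMM-normalized CPM on a log axis for the 6 tested member IDs in each library, KO in red left of WT in blue, circles for passage 34 and triangles for passage 42, with a bar at each mean of 2 libraries. Both *Il1rl1* IDs sit between 104.1 and 322.6 CPM in KO, above the 19.2 to 58.8 CPM of WT, while KO and WT overlap for *Il1rl2*, *Il1r1* and *Il18r1* and are separate but close for *Il1rap*.

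*Il1rl1* also differed between passages. Both forms were lower at passage 42 than at passage 34 in each genotype, the soluble form 2.07-fold in KO and 2.93-fold in WT and the membrane form 1.59-fold in KO and 2.14-fold in WT. With genotype as a block, the log2 fold change of passage 42 against 34 was -1.29 for the soluble (edgeR adjusted p 1.05e-08) and -0.87 for the membrane form (adjusted p 0.0026). Over all transcripts, 2.31% were called between passages and 0.541% were called lower at passage 42. This fit leaves 1 residual degree of freedom among the libraries and so rests on the spread shared by all transcripts. Without the genotype block the values were -1.11 (adjusted p 0.967) and -0.75 (adjusted p 0.971), and no transcript was called, with 669 at an unadjusted p under 0.05. None of the other 4 tested member IDs in use was called between passages. With 1 library per genotype at each passage, whether the KO effect differs between passages could not be tested.

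The balance between the forms was read from the share of the soluble ID in the summed counts of both. Any reads of unspliced RNA counted for the soluble ID are part of this share. In KO cells the share was 66.1% at passage 34 (95% Wilson interval 65.0% to 67.1%) and 60.0% at passage 42 (58.6% to 61.3%). In WT cells it was 58.9% (56.1% to 61.7%) and 51.1% (47.2% to 55.1%). The intervals cover counting error only, since reads amplified by PCR are not independent molecules. The share is one of counts and not of molecules because the own stretches of the forms differ in length. In the GENCODE models they are 1473 bases in the soluble and 4114 bases in the membrane form, so a share per base would be higher. The mean was 63.0 ± 4.31% in KO and 55.02 ± 5.50% in WT (SD, n = 2 each), a difference of 8.004 percentage points, with a two-sided exact permutation p of 0.333, the smallest that 2 libraries against 2 allow. Within passages the difference was 7.16 points at passage 34 and 8.84 points at passage 42, and from passage 34 to 42 the share changed by -6.10 points in KO and -7.77 points in WT. The KO value at passage 42 and the WT value at passage 34 lay within each other's intervals, so the lowest KO and the highest WT library were not separated beyond counting error.

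**Figure D2:**
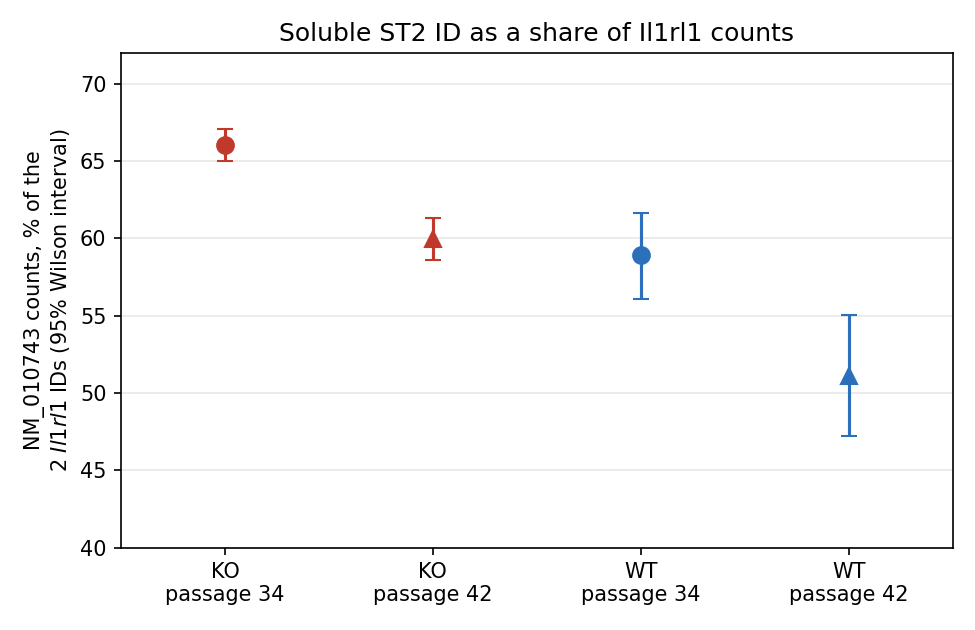
Counts of the soluble ID NM_010743 as a percent of the counts of both *Il1rl1* IDs in each library, KO in red and WT in blue, circles for passage 34 and triangles for passage 42, with 95% Wilson intervals and an axis that starts at 40%. The share is 66.1% and 60.0% in KO and 58.9% and 51.1% in WT, and it is lower at passage 42 in both genotypes.

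Few reads were given to either ID of the ST2 ligand. *Il33*, which codes for the nuclear alarmin interleukin 33, had 0 and 1 counts in KO and 3 and 0 in WT on NM_133775, and 0 and 0 counts in KO and 2 and 1 in WT on its other ID. No value exceeded the floor of 3 counts, so no difference was detectable on the bases that belong to 1 ID alone, and since reads in exons common to both IDs are missing, the level of *Il33* as a whole was not measured. Among the other ligands, *Il1a* had 31 and 8 counts in KO and 11 and 10 in WT, *Il1b* had 15 and 11 counts in KO and 9 and 10 in WT, and neither passed the filter. The interleukin 36 ligand gene *Il1f9*, by contrast, had 596 and 460 counts in KO and 296 and 441 in WT, and was tested and not called (log2 fold change 0.19, edgeR adjusted p 0.872).

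The coreceptor *Il1rap*, which ST2L and IL1R1 share, was well detected and was not called. Its main ID NM_008364 had 67.2 and 75.0 CPM in KO at passages 34 and 42, against 46.5 and 53.9 CPM in WT. Both KO libraries lay above both WT libraries, as they did for 21.9% of all tested transcripts, and the groups did not overlap in either direction for 41.9%. It had a log2 fold change of 0.50 ± 0.210 (SE) and an edgeR adjusted p of 0.332. A second ID, NM_134103, was much lower, with 36 and 160 counts in KO and 29 and 69 counts in WT, and was not called between genotypes (log2 fold change 0.62, adjusted p 0.760). That ID was called higher at passage 42 with genotype as a block (log2 fold change 1.41, adjusted p 0.0254), as were 1.77% of all transcripts. The remaining IDs had 4 and 4 counts in KO and 0 and 5 counts in WT, and 0 counts throughout. Reads in exons common to these IDs are missing, so the level of *Il1rap* as a whole was not measured. *Il1rap* lies on the plus strand of chromosome 16 (26581790 to 26730203, NCBIM37) and overlaps an antisense gene, from which its reads cannot be separated if strand was not used in counting.

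*Il1rl2*, the receptor of the interleukin 36 cytokines, stood in opposite order in KO and WT at the 2 passages. It had 5.46 CPM in KO at passage 34 and 11.3 CPM at passage 42, against 12.4 and 6.74 CPM in WT, from 89 and 218 counts in KO and 148 and 106 counts in WT. KO was thus below WT at passage 34 and above it at passage 42, by -1.17 and 0.73 on the log2 scale. The pooled log2 fold change was -0.18 ± 0.419 (SE, edgeR adjusted p 0.932), and it was 0.33 without WT replicate 1 and 0.23 without KO replicate 1.

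*Il18r1*, the binding subunit of the interleukin 18 receptor, had 9.08 and 7.29 CPM in KO, against 4.36 and 7.57 CPM in WT. KO was above WT at passage 34, by 1.04 on the log2 scale, and close to it at passage 42, at -0.05. For *Il18r1* the log2 fold change was 0.45 ± 0.365 (SE, edgeR adjusted p 0.726). Its other 2 IDs had at most 1 count in any library. Only 136 bases separate the end of *Il1rl1* from the start of *Il18r1* on the same strand.

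*Il1r1*, the signalling receptor of interleukin 1, was barely above the filter on the ID with most counts. NM_001123382 had 24 and 26 counts in KO and 17 and 18 in WT, or 1.47 and 1.35 CPM in KO against 1.43 and 1.14 CPM in WT. The second ID, NM_008362, had 12 and 22 counts in KO and 6 and 10 in WT and was not tested. The log2 fold change of the main ID was 0.14 ± 0.420 (SE, edgeR adjusted p 0.949), and the KO and WT values overlapped. Reads in exons that both IDs share are missing from these counts, so the level of *Il1r1* as a whole was not measured.

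The IDs of both restraining members had too few counts to test. *Il1r2*, the decoy receptor of interleukin 1, had 11 and 11 counts in KO, against 1 and 2 counts in WT. The ratio of the summed counts, 22 in KO and 3 in WT, was 5.77 after scaling with an exact 95% interval of 1.73 to 30.1 that covers counting error only. With every transcript kept, its log2 fold change was 2.43 with an edgeR adjusted p of 0.462, and with a minimum of 10 summed counts it was 2.42 with an adjusted p of 0.446. It overlaps a noncoding gene on the other strand, Gm16894. *Il1rn*, the receptor antagonist, had 0 and 4 counts in KO and 3 and 0 in WT on its main ID, and at most 3 counts in any library on its other 2 IDs, and reads in exons common to these IDs are missing, so that its level as a whole was not measured.

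The genes of 5 members form a cluster on chromosome 1, and the genes around it were read to see whether *Il1rl1* stood alone there. In NCBIM37 the order on the plus strand is *Il1r2* (40141613 to 40182064), *Il1r1* (40281925 to 40373043), *Il1rl2* (40381472 to 40422316), *Il1rl1* and *Il18r1* (40522397 to 40557699). Of 24 genes annotated within 1 Mb of *Il1rl1*, 18 had an ID in the counts and 12 were tested. None of the 11 tested genes other than *Il1rl1* was called without a block for passage, against 2.75% of all transcripts. The log2 fold change was positive for 9 and negative for 2, beside a median of 0.02 over all tested transcripts. Some positive values were smaller than their SE, such as *D1Bwg0212e* (0.06 ± 0.225) and *Il1r1* (0.14 ± 0.420), so the signs are a description only. *Il18rap*, the signalling subunit of the interleukin 18 receptor, had 521 and 985 counts in KO and 354 and 316 counts in WT (log2 fold change 0.74, edgeR adjusted p 0.298). *Slc9a4*, a sodium-proton exchanger, had 35 and 32 counts in KO and 9 and 17 in WT (1.02, adjusted p 0.359), and the kinase gene *Map4k4* had 679 and 395 counts in KO and 163 and 276 in WT (0.99, adjusted p 0.204). The KO and WT values of these 3 genes did not overlap, as for 41.9% of all tested transcripts, nor did those of *Tbc1d8* and *Rnf149*. At passages 34 and 42 KO was 1.08-fold and 2.54-fold WT for *Il18rap*, 2.85-fold and 1.53-fold for *Slc9a4*, and 3.05-fold and 1.16-fold for *Map4k4*. None of the 3 passed the test, though each had an unadjusted p under 0.05. DESeq2 and edgeR's exact and likelihood ratio tests called 0 of the 11. With the replicate block 1 of the 11 was called, *Map4k4* (log2 fold change 0.91, adjusted p 0.0189). The other members are on other chromosomes, *Il1rn* on 2, *Il1rap* on 16 and *Il33* on 19.

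**Figure D3:**
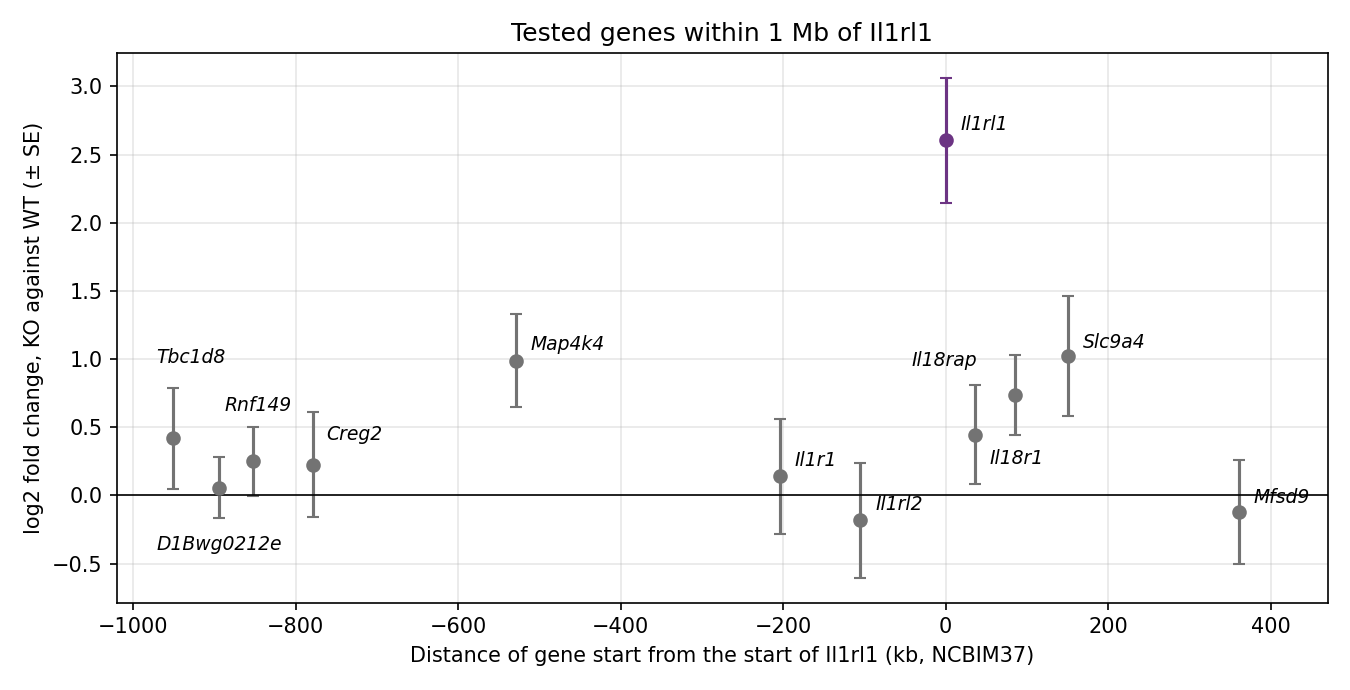
Log2 fold change of KO against WT (points, with SE as bars) for the 12 tested genes within 1 Mb of *Il1rl1*, by the distance in kb of each gene's start from that of *Il1rl1*, with called genes in purple and others in gray. *Il1rl1* (soluble ID) stands at 2.61, and the 11 others lie between -0.18 and 1.02.

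The pathway around the receptors was read through lists that were drawn up with earlier results of these counts known, so their counts are descriptions. Among 14 other ligands and regulators of the family, 6 were tested and none was called, with a median log2 fold change of -0.24, against 0.02 over all transcripts. Beside *Il18rap*, the smallest p-values belonged to *Il1rapl1* (-1.02, edgeR adjusted p 0.531), *Il18* (-0.88, adjusted p 0.540) and the interleukin 18 binding protein *Il18bp* (-0.41, adjusted p 0.778). Among 29 signalling genes from *Myd88* to NF-kappaB, 20 were tested and none was called, with a median of 0.12. In both lists 1 gene had an unadjusted p under 0.05 (*Il18rap* and *Peli2*), and DESeq2 and the exact and likelihood ratio tests of edgeR called none, while the replicate block called *Peli2* (log2 fold change -0.89, adjusted p 0.000539). In the fit without the block, the closest to the threshold was *Peli2*, an E3 ligase that acts on IRAK kinases, with 575 and 1254 counts in KO and 931 and 1598 counts in WT (-0.84, adjusted p 0.194). *Nfkb1* (0.36), *Map3k8* (0.70) and *Irak4* (0.42) followed, with adjusted p between 0.515 and 0.637.

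Of 11 genes that process the ligands, 8 were tested, 1 was called higher and none lower, with a median log2 fold change of 0.06. The called gene was *Casp4*, which encodes the caspase that senses cytosolic lipopolysaccharide, with 168 and 435 counts in KO, against 61 and 28 counts in WT. Its log2 fold change was 2.28 ± 0.511 (SE, edgeR adjusted p 0.0394), and 1.68 with an adjusted p of 0.353 without WT replicate 2. The others with the smallest p were *Capn2* (0.49, adjusted p 0.321), *Nlrp1a* (-0.30, adjusted p 0.778) and *Casp8* (0.36, adjusted p 0.816).

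Genes that interleukin 1 is known to induce in fibroblasts were called in both directions. Of 28 names, 19 were tested, 3 were called higher and 4 lower, and the median log2 fold change was 0.10. Over all tested transcripts 1.51% were called higher and 1.24% lower. The list was drawn up with earlier results known, so its counts are a description. *Ptgs2*, the inducible cyclooxygenase, had 5361 and 4192 counts in KO, against 718 and 838 in WT (log2 fold change 2.27, edgeR adjusted p 0.000619). The epidermal growth factor receptor ligand *Ereg* had 1043 and 1235 counts in KO, against 69 and 113 in WT (3.30, adjusted p 8.38e-05), and the matrix metalloproteinase *Mmp3* had 145 and 199 in KO, against 12 and 10 in WT (3.56, adjusted p 0.00118). Lower in KO were 2 chemokines that attract neutrophils, among others. *Cxcl1* had 62 and 84 counts in KO, against 1066 and 1507 in WT (-4.50 ± 0.253 SE, adjusted p 1.18e-05). *Cxcl5* had 1028 and 1543 counts in KO, against 2220 and 2691 in WT (-1.32, adjusted p 0.0059). The gelatinase *Mmp9* (-2.11, adjusted p 0.0080) and the monocyte chemokine *Ccl7* (-0.88, adjusted p 0.0378) were also lower in KO. Both KO libraries lay on the same side of both WT libraries for each of the 7 called genes, as for 41.9% of all tested transcripts. A called gene is likely to be separated in this way, so the separation adds nothing to the calls. The *Mmp9* call was lost without WT replicate 2 (adjusted p 0.0706), and that of *Ccl7* without WT replicate 1 (0.254), WT replicate 2 (0.213) or KO replicate 1 (0.0680).

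**Figure D4:**
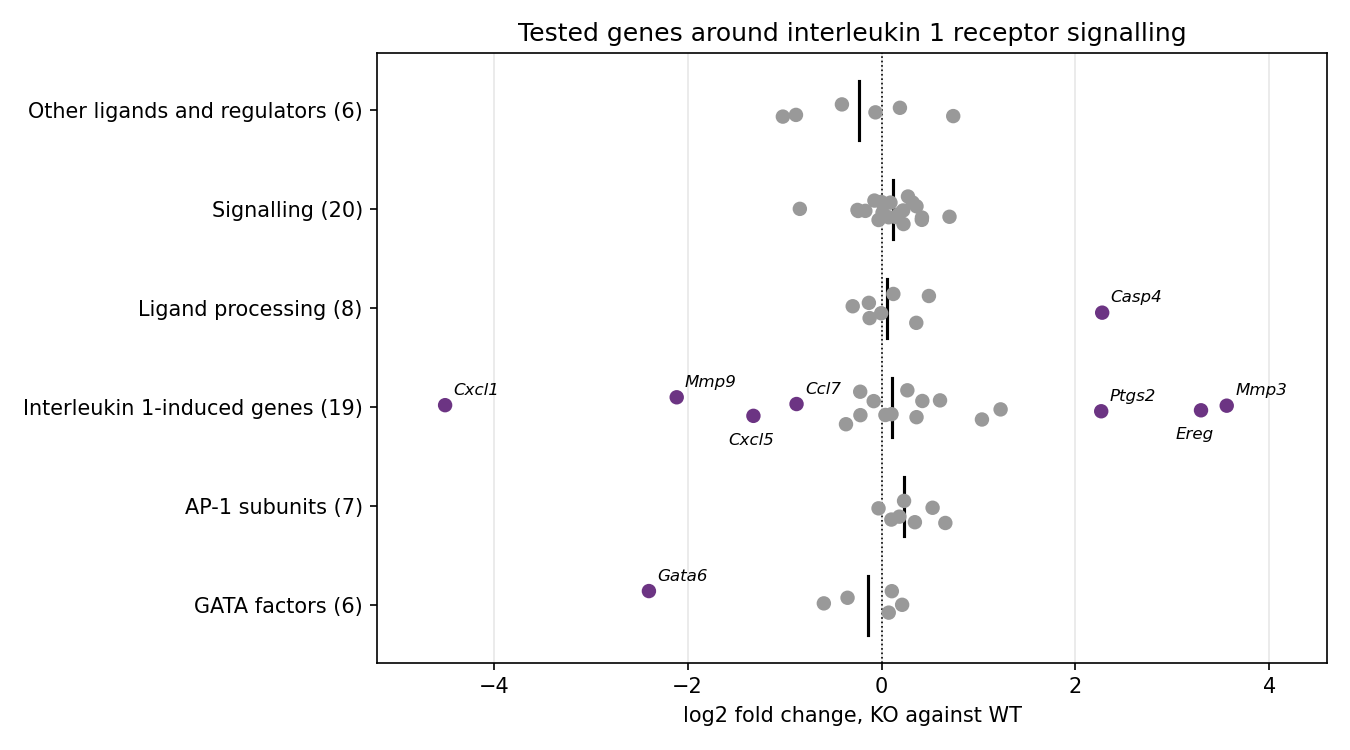
Log2 fold change of KO against WT for the tested genes of 6 lists, with the number tested in brackets, called genes in purple with their names, others in gray, and a bar at each list's median. Points are spread vertically for legibility only. The medians lie between -0.24 and 0.23, and the 9 called genes run from *Cxcl1* at -4.50 to *Mmp3* at 3.56.

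AP-1 and GATA factors were read because AP-1 is known to act on *Il1rl1* in growth-stimulated fibroblasts and GATA factors on its distal start in mast cells. Of 9 AP-1 subunits, 7 were tested and none was called between genotypes, with a median log2 fold change of 0.23. *Fosl2* had 7686 and 6353 counts in KO and 2732 and 4371 in WT (0.66, edgeR adjusted p 0.219), and *Jun* had 3920 and 4021 in KO and 1706 and 2646 in WT (0.53, adjusted p 0.275), the 2 with an unadjusted p under 0.05, and none of the 7 was called by DESeq2 or edgeR's other tests. With the replicate block both were called higher in KO (*Fosl2* adjusted p 0.0095, *Jun* adjusted p 0.0464). The smallest p after these belonged to *Junb* (0.23, adjusted p 0.811) and *Fosb* (0.34, adjusted p 0.930). Between passages, 2 of the 7 were called, both lower at passage 42 with genotype as a block. *Fosb* had 363 and 54 counts in KO at passages 34 and 42 and 188 and 64 in WT (log2 fold change -2.47, adjusted p 8.82e-10), and *Fos* had 749 and 543 counts in KO and 644 and 180 in WT (-1.45, adjusted p 1.25e-05). Both are immediate early genes of the serum response, and both were lower at the passage at which *Il1rl1* was lower. *Fosl1* went the other way and was not called (0.80, edgeR adjusted p 0.0831). It had 357 and 622 counts in KO and 214 and 585 in WT. The other tested subunits lay between -0.56 (*Atf3*) and 0.01 (*Jun*). Whether AP-1 subunits have a part in the passage difference of *Il1rl1* was not tested.

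All 6 GATA factors were tested, 1 was called lower in KO and none higher, with a median log2 fold change of -0.14. *Gata6*, known from heart and endoderm, had 308 and 289 counts in KO, against 1115 and 1337 in WT (-2.40 ± 0.233 SE, edgeR adjusted p 0.000334). *Gata2*, a mast cell regulator, had 420 and 459 counts in KO and 419 and 441 in WT (-0.35, adjusted p 0.658). *Gata1* (-0.60, adjusted p 0.651) and *Gata4* (0.21, adjusted p 0.902) were not called either.

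ST2 marks mast cells and subsets of lymphoid cells in tissue, so markers of these cells were read in the same libraries. The 9 mast cell markers summed to 4.54 and 4.45 CPM in KO and 5.79 and 3.82 CPM in WT, and *Kit* (2 IDs) and *Tpsab1* (1 ID) were listed at 0 in all 4 libraries. The 7 of these markers with a single ID, which lose no reads to another ID of the same gene, had at most 33 counts in any library. Of this list 1 gene was tested, and it was not called. The 8 macrophage and leukocyte markers summed to 25.0 and 18.7 CPM in KO and 19.0 and 14.4 CPM in WT, with *Cd68* and *Itgam* (2 IDs each) listed at 0 and the most counted of 3 IDs of the pan-leukocyte *Ptprc* at 0 and 1 counts in KO and 1 and 4 in WT. Of the 4 tested on that list none was called by edgeR or DESeq2, and 1, *Csf1r*, had an unadjusted p under 0.05, with 10.7 and 9.21 CPM in KO and 5.54 and 5.21 CPM in WT (log2 fold change 0.89, adjusted p 0.238); its part in the *Il1rl1* difference was not tested. Of 6 markers of T cells and innate lymphoid cells, 4 were tested and 1 was called, *Thy1*, with 20957 and 14838 counts in KO and 3743 and 4307 in WT (log2 fold change 1.80, edgeR adjusted p 0.0047). *Thy1* is a surface protein of fibroblasts too and is on the fibroblast list. Endothelial, keratinocyte and pigment cell lists summed to 10.4 to 12.2, 10.8 to 13.3 and 31.4 to 44.1 CPM in KO, against 11.1 to 11.7, 12.5 to 13.9 and 28.8 to 37.2 CPM in WT, and no gene of these was called by edgeR or DESeq2, with 1 keratinocyte gene at an unadjusted p under 0.05.

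The pattern of *Il1rl1* over the 4 libraries, high in KO, low in WT and lower at passage 42 in each, was set against 10166 transcripts with a mean of at least 50 counts. Likeness was measured as the largest absolute difference of centered log2 CPM over the 4 libraries from the mean of both *Il1rl1* IDs, and the measure is a description because the pattern was known. The *Il1rl1* IDs themselves lay 0.23 from their mean, 5 transcripts lay within 0.5 and none within 0.25. These 5 were picked for this likeness, so their calls follow in part from that choice and are a description too. The closest was *Thbd*, which encodes thrombomodulin, a surface cofactor of protein C activation, at 0.26. It had 3812 and 3141 counts in KO, against 666 and 448 in WT (log2 fold change 2.24, edgeR adjusted p 0.0033). *Hes1*, a transcriptional repressor downstream of Notch, followed at 0.30 with 538 and 433 counts in KO, against 73 and 56 in WT (2.53, adjusted p 0.0033). *Brinp1* lay at 0.31 with 121 and 86 counts in KO, against 22 and 13 in WT (2.17, adjusted p 0.0378), and *Angptl4*, an inhibitor of lipoprotein lipase, at 0.43 with 317 and 298 in KO, against 44 and 41 in WT (2.48, adjusted p 0.0032). *Ramp3*, a receptor activity-modifying protein, lay at 0.48 with 148 and 88 counts in KO and 36 and 20 in WT and was not called (1.69, adjusted p 0.126). Without WT replicate 2 the calls of *Hes1* (adjusted p 0.0578), *Angptl4* (0.0714) and *Brinp1* (0.468) were lost, as was that of *Brinp1* without WT replicate 1 (0.0809), and that of *Thbd* was kept. Between passages only *Thbd* of these 5 was called, lower at passage 42 (-0.74, adjusted p 0.0073).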

How the data were processed

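RNA of 4 libraries was measured by RNA sequencing, with genotype, passage and replicate taken from the sample labels. The authors removed adapters with cutadapt, mapped reads to NCBI37/mm9 with TopHat2 2.0.9 and deposited raw counts per RefSeq transcript, made with htseq-count from reads of a mapping quality above 20. The versions of cutadapt and HTSeq and the use of strand in counting were not given in the sources used here. Reads in no feature (49.9% to 56.5% of all reads) and ambiguous reads stayed out of library sizes and tests.

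The counts were fitted with edgeR 4.0.16 in R 4.3.3 (TMM, quasi-likelihood test, p-values adjusted after Benjamini-Hochberg with a threshold of 0.05) over transcripts that reached 1 CPM in both libraries of a genotype, the filter and false discovery rate of the study's methods. The fit had 2 residual degrees of freedom, so that p-values lean on the spread shared among transcripts (biological coefficient of variation 21.8%). Within a passage, log2 CPM values (prior count of 2) were subtracted without a test. Replicates of a genotype differed by more than sampling noise (chi-square per degree of freedom 37.3 in KO and 22.5 in WT). Gene symbols were matched for 32308 of 32757 IDs through RefSeq genes of GRCm38.p6, and positions came from GENCODE vM1 on NCBIM37. The assignment of the *Il1rl1* IDs to forms follows RefSeq, and the exon limits shown are those of GENCODE.

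Members, lists and tests were chosen with earlier results of these data known. Named are all *Il1rl1* IDs, the most counted ID of every other member, in each list the called genes and up to 4 with the smallest p, the neighbors of the receptor cluster, and the 5 transcripts closest to the pattern of *Il1rl1*. Alternatives were RLE size factors, library totals, the likelihood ratio and exact tests of edgeR, DESeq2 1.42.0, 3 other filters, counts summed per symbol, a prior count of 0.5, a replicate block, a passage fit without genotype, and each library left out in turn. The procedure was tested on simulated data. Tables and plots were made in Python 3.11.15 (numpy 2.4.6, scipy 1.17.1, pandas 2.3.3, matplotlib 3.10.9).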

Additional observations from a re-analysis of the deposited data

Results flagged for a closer look

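*Il1rl2* (NM_133193) and *Il18r1* (NM_008365) drew attention because the difference between KO and WT changed sign between the 2 passages. For *Il18r1*, however, KO and WT were nearly alike at passage 42. The difference of *Il1rl2*, KO minus WT in log2 CPM, was -1.17 at passage 34 and 0.73 at passage 42. That of *Il18r1* was 1.04 at passage 34 and -0.052 at passage 42. Each value compares 1 library with 1 library, and whether the passages differ was not tested, since no residual degree of freedom is left for it.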

How the results depend on the processing

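Of 13855 transcripts, 381 were called, and the count was 638 with the likelihood ratio test of edgeR, 612 with the exact test, 740 with no filter on low counts and 109 to 1291 with 1 library left out (lowest without WT replicate 2, highest without KO replicate 2). With a replicate block, in which the number is also the passage, it was 1092. The deviations of same-numbered libraries correlated at 0.17, and the labels give the same passage to libraries of the same number but do not say that they were grown or handled together, so the fit without the block was kept as the one reported. Both *Il1rl1* IDs were called under the block, and so were *Peli2*, *Map4k4*, *Fosl2*, *Jun* and the fibroblast marker *Dcn* (adjusted p 0.0319), which were not called without it. The member IDs called, 2 in the fit reported, were 1 with DESeq2, 1 with counts summed per symbol (where *Il1rl1* counts once) and 0 to 2 with 1 library left out. The log2 fold change of the soluble *Il1rl1* ID was 2.59 with DESeq2 (adjusted p 0.0595) and 1.98 to 3.59 with 1 library left out. That of the membrane ID was 1.72 to 2.83 with 1 library left out. The soluble and membrane IDs passed the threshold in 12 and 13 of 14 alternatives. Among these, the fit with counts summed per symbol tested both IDs as 1 gene (log2 fold change 2.43) and is counted for each. With 1 library left out, *Il1rl2* lay between -0.84 and 0.33 and turned positive without WT replicate 1 (0.33) or KO replicate 1 (0.23), and *Il1r1* lay between -0.018 and 0.31 and turned negative without WT replicate 2. Transcripts called between passages numbered 320, 145 with at least 1 CPM in all 4 libraries and 0 without the genotype block. RLE factors and library totals shifted the median of all log2 fold changes by -0.01 and 0.02. Where a call changed, the cause was not tested. At 3 counts or fewer, no difference in *Il33* could be seen, and 2 libraries a genotype limit every value.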
